A study of Mus musculus with 12 samples.

Results

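The amino acid and peptide carriers described here are the genes whose symbol belongs to the solute carrier families Slc1a, Slc3a, Slc6a, Slc7a, Slc15a, Slc36a, Slc38a and Slc43a. The deposited table listed 42 such rows, carrying 41 symbols, among 16035 genes. The symbol rule uses no measured value. It also takes in members of the same families that carry other substrates, among them Slc6a4 (serotonin), Slc6a8 (creatine) and Slc43a3, reported to carry purine nucleobases. Liver RNA was sequenced from wild-type C57BL/6 mice in 4 groups, with 3 biological replicates in each. Mice had been fed HFCF, which the labels do not spell out, for 3 months (age 6 months) or normal chow for 3 months (age 6 months). The other mice had been fed HFCF for 1 month (age 3 months) or normal chow for 1 month (age 3 months). The series title names experimental nonalcoholic steatohepatitis. The comparisons ask how each carrier differed between HFCF and chow at each month, and between the months on each diet. Months on the diet and age of the mouse cannot be told apart.

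Hepatocytes import amino acids from portal blood for protein, glucose, urea and glutathione synthesis, and the carriers that do so fall into a few structural kinds. The Slc7a light chains LAT1, LAT2, y+LAT1, y+LAT2 and xCT reach the plasma membrane as disulfide-linked pairs with the heavy chain 4F2hc (Slc3a2), whereas the Slc7a cationic carriers, the sodium-coupled Slc1a, Slc6a and Slc38a carriers and the Slc43a facilitators work without it. Several carriers, such as Slc15a3, Slc15a4, Slc36a1, Slc38a7 and Slc38a9, sit on endosomes or lysosomes, where Slc38a9 relays arginine to mTORC1. Genes for several of these carriers are textbook targets of ATF4, the transcription factor of the amino acid response, and Slc7a11 is also a target of NRF2.

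Gene counts summed to between 13733485 and 20277572 per library. Of the 42 rows, 40 passed the filter on low counts and were tested, among 14725 genes in all. Levels of a gene across libraries are given below as CPM, counts scaled by TMM to a common library size, in the order of replicates 1, 2 and 3, and levels between genes as deposited FPKM, which are per length. A change is called where the adjusted p of edgeR's quasi-likelihood test, Benjamini-Hochberg adjusted over 14725 genes, was under 0.05. On the first 2 principal components of all genes, a pair of libraries stood apart most from their groups. On the first principal component of all genes, HFCF 3-month replicate 3 lay at 29.3, against 60.7 and 63.8 for replicates 1 and 2. Chow livers lay between -31.2 and -7.74, so that replicate 3 was the nearest of its group to chow. On the second component chow 1-month replicate 1 lay at 36.8, against 0.00513 and 6.43 for replicates 2 and 3. Both libraries were picked out from these same data. Calls gained by leaving them out are therefore not independent support for a diet effect. On the second component of the carriers alone, HFCF 1-month replicate 2 lay at 4.03, against -0.467 and -0.436 for replicates 1 and 3. That library was left out only by itself, not together with the pair. Hepatocyte markers summed to between 88100 and 114000 CPM in HFCF livers and between 136000 and 139000 CPM in chow livers at 3 months. At 1 month they summed to between 123000 and 137000 CPM in HFCF livers and between 142000 and 157000 CPM in chow livers, also without overlap. Macrophage and recruited myeloid markers, of which 15 of 16 were listed and none was at 0 in a group, summed to 837, 812 and 355 CPM in HFCF livers and 262, 198 and 185 CPM in chow livers at 3 months. At 1 month the myeloid sums were 302, 203 and 298 CPM in HFCF livers and 231, 190 and 204 CPM in chow livers.

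3 carriers made up most of the RNA of the set. In the 6 chow livers Slc38a4 (SNAT4, a sodium-coupled carrier of small neutral amino acids, abundant in liver) averaged 434 ± 31.3 FPKM (SD, n = 6), Slc38a3 (SNAT3, the system N glutamine carrier) 291 ± 22.6 FPKM and Slc7a2 (CAT2, a cationic amino acid carrier) 188 ± 27.3 FPKM. Their ranges over the chow libraries did not overlap each other or that of any lower carrier, and they held the first 3 ranks in all 4 groups. The next ranks were taken by Slc6a13 (a GABA and taurine carrier, 43.2 ± 5.23 FPKM), Slc38a2 (SNAT2, a system A carrier, 39.4 ± 11.7 FPKM) and Slc6a12 (the betaine and GABA carrier BGT1, 36 ± 3.48 FPKM), whose ranges overlapped. Slc3a1 (rBAT, a heavy chain of cystine and cationic amino acid uptake) averaged 24.7 ± 14.7 FPKM, Slc1a2 (the glutamate carrier GLT-1) 21.8 ± 3.59 FPKM, Slc38a10 16.1 ± 1.24 FPKM and Slc43a3 11.6 ± 0.678 FPKM. At 10 FPKM or more in chow stood 12 of the 42 rows, and 18 lay under 1 FPKM. The lowest was Slc7a11, at 0.00374 FPKM.

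**Figure D1:**
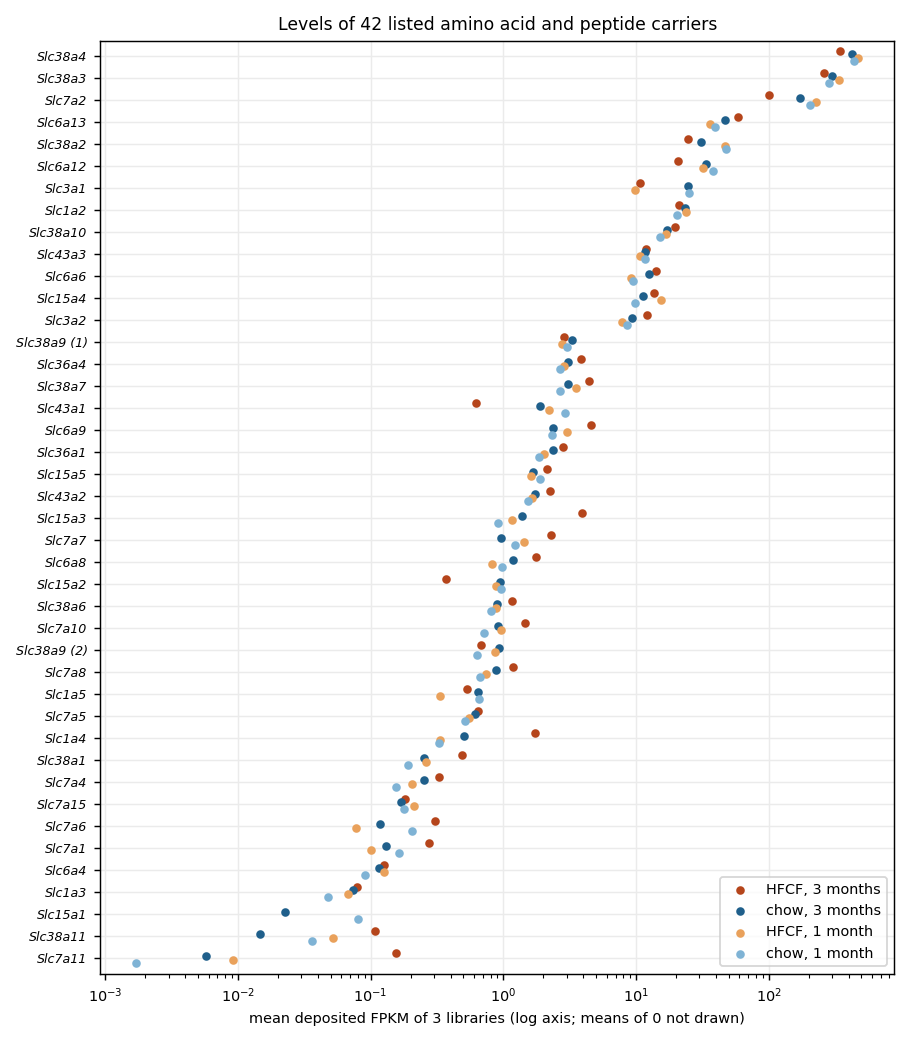
Mean deposited FPKM of 42 carriers (log axis) in the 4 groups, 3 libraries each, ordered by the chow mean. These FPKM are not scaled by TMM between groups. Slc38a4, Slc38a3 and Slc7a2 sit apart at the top in every group, and the HFCF 3-month point lies far to the right of the other groups for Slc7a11 and far to the left for Slc43a1.

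The summed FPKM of all 42 rows was 951 ± 95.4 in HFCF livers and 1150 ± 103 in chow livers at 3 months, and 1280 ± 31.5 in HFCF livers and 1190 ± 48.8 in chow livers at 1 month (SD, n = 3 each). The 3 leading carriers held 73.5 ± 5.04% of that sum in HFCF livers and 78.1 ± 0.503% in chow livers at 3 months. HFCF replicate 3, at 79.3%, was above the chow range of 77.6 to 78.6%, while the other HFCF libraries were at 70% and 71.3%. These sums and shares were not tested. Deposited FPKM lack the TMM scaling used for CPM, so the sums also differ between groups in scaling. The TMM factors were 1.14, 1.13 and 1.03 in HFCF livers and 1.03, 1.02 and 0.972 in chow livers at 3 months. Shares are taken within a library and do not depend on these factors.

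At 3 months 7 of 40 tested carriers passed the threshold between HFCF and chow, 4 higher and 3 lower. That is 17.5% of the carriers, against 19% of all genes tested, so the share called was near the background. The median log2 fold change of the carriers was 0.13, against -0.004 for all genes. Higher in HFCF livers were Slc7a11, Slc1a4, Slc15a3 and Slc7a7, and lower were Slc43a1, Slc6a12 and Slc7a2. Split by mean level over all 12 libraries, the 12 carriers at 10 FPKM or more gave 0 higher and 2 lower, the 13 between 1 and 10 FPKM gave 2 higher and 1 lower, and the 15 tested ones under 1 FPKM gave 2 higher and 0 lower. The other 33 carriers had log2 fold changes between -1.46 and 1.23, and 14 of the 40 had an unadjusted p under 0.05, against 33.4% of all genes. Leaving out 1 of the other 3-month libraries gave 5 to 7 carriers. Without HFCF replicate 3 the count was 14, of which 9 were higher and 5 lower, as 3631 of all genes passed. Without both libraries that stood apart it was 16, of which 10 were higher and 6 lower, as 3910 of all genes passed. The same 7 were among them in both cases.

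**Figure D2:**
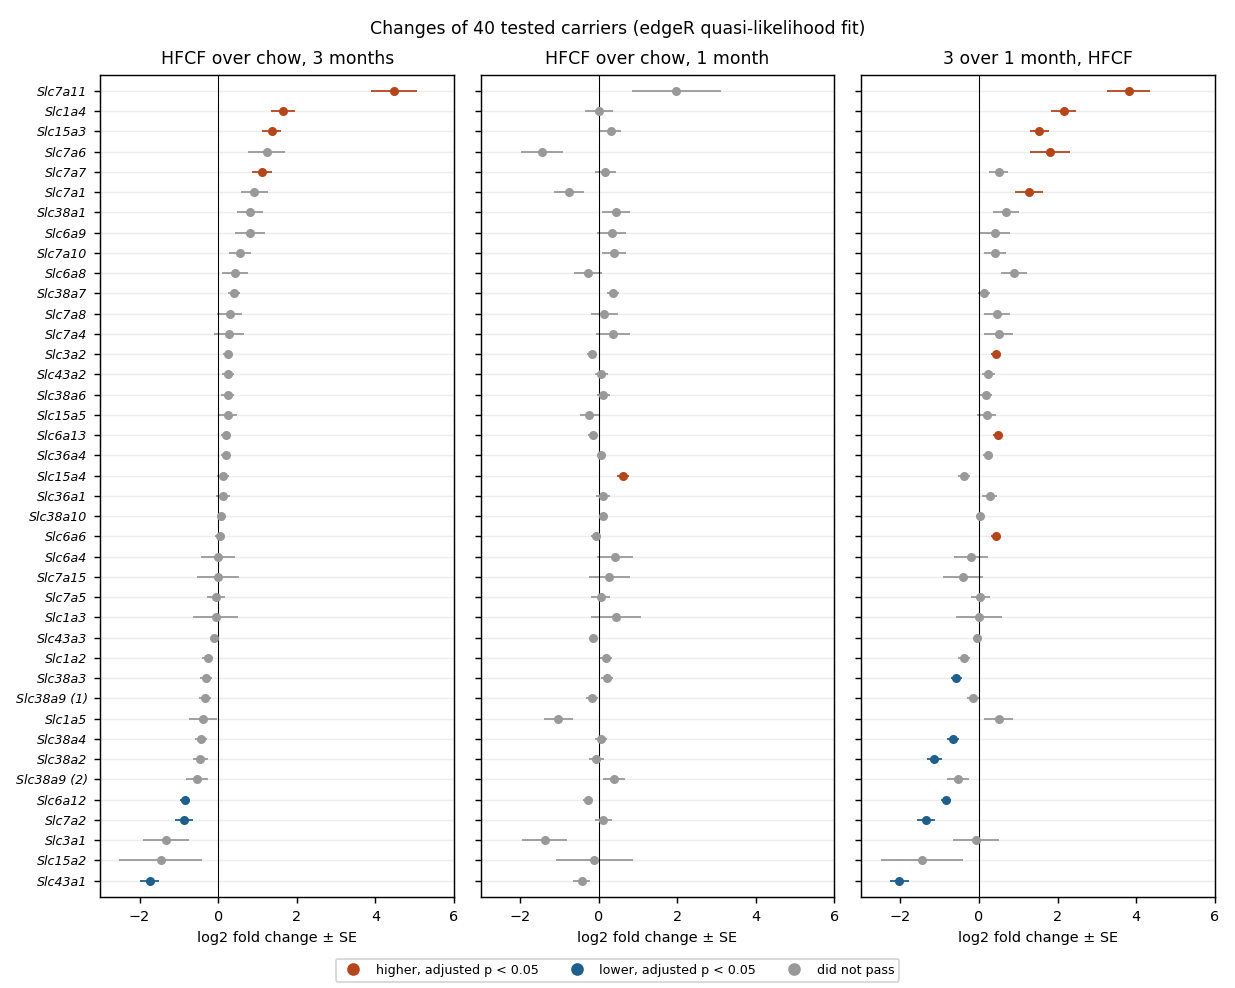
Log2 fold changes with their standard errors for the 40 tested carriers, ordered by the 3-month diet comparison, from 1 edgeR fit of 12 libraries. At 3 months 4 carriers are called higher and 3 lower, at 1 month 1 is called, and between the months on HFCF 14 are called; Slc38a9 (1) and (2) are the identifiers ENSMUSG00000047789 and ENSMUSG00000069056.

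Slc7a11 encodes xCT, the light chain that exchanges extracellular cystine for glutamate and so feeds glutathione synthesis. It gave 42, 41 and 13 counts in HFCF livers and 1, 1 and 1 counts in chow livers at 3 months, or 1.97, 1.79 and 0.897 CPM against 0.0539, 0.0654 and 0.075 CPM. Each HFCF library lay above each chow library, and replicate 3 was the lowest of the HFCF livers at 3 months. The ratio of the summed counts scaled for depth was 25.7, with a 95% exact interval of 8.53 to 127 that covers counting error only. The fitted log2 fold change was 4.48 ± 0.59 (SE; edgeR adjusted p = 0.000523), a value that depends on the prior count at levels this low. At 1 month 5 counts in 3 HFCF livers stood against 1 count in 3 chow livers, a ratio of 4.95 (0.554 to 234), which was not distinguishable from no difference at this depth. The gene lies on chromosome 3 (mm10, 50364936 to 50443613, minus strand).

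The heavy chain Slc3a2, the partner of Slc7a11, did not pass the threshold at 3 months. It was at 34.8, 34.1 and 28.2 CPM in HFCF livers and 29.2, 26.4 and 26.3 CPM in chow livers, with a log2 fold change of 0.25 ± 0.12 (edgeR adjusted p = 0.153). HFCF replicate 3 fell within the chow range and the other HFCF libraries lay above it. Without HFCF replicate 3 the value was 0.33 (edgeR adjusted p = 0.056), and without both libraries that stood apart it passed at the same value (edgeR adjusted p = 0.0298).

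Slc7a7 encodes y+LAT1, a 4F2hc-linked exchanger of cationic for neutral amino acids that macrophages also use. It was at 5.8, 4.8 and 3.52 CPM in HFCF livers and 2.8, 1.76 and 1.87 CPM in chow livers at 3 months. The groups did not overlap, with HFCF replicate 3 lowest among the HFCF livers and chow replicate 1 highest among the chow livers. The log2 fold change was 1.12 ± 0.26 (edgeR adjusted p = 0.0104). The call was lost without chow 3-month replicate 2 (edgeR adjusted p = 0.0554) and without HFCF 3-month replicate 1. Slc7a7 (chromosome 14, 54369444 to 54414019, minus strand) shares exon bases with Oxa1l on the opposite strand, which was lower in HFCF livers (-0.38 ± 0.09, edgeR adjusted p = 0.00811).

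The remaining 4F2hc-linked light chains did not pass at 3 months. Slc7a6 (y+LAT2) was at 1.54, 1.14 and 0.345 CPM in HFCF livers and 0.593, 0.327 and 0.375 CPM in chow livers, so that HFCF replicate 3 lay inside the chow range (1.23 ± 0.47, edgeR adjusted p = 0.0834). Without that library the value was 1.58 (edgeR adjusted p = 0.00835). Slc7a5 (LAT1) had a log2 fold change of -0.06 ± 0.23, Slc7a8 (LAT2) 0.29 ± 0.32, and Slc7a10 (Asc-1) 0.56 ± 0.28. Slc7a10 shares exon bases with Lrp3 on the opposite strand, which was higher (0.70 ± 0.16, edgeR adjusted p = 0.00958). The other heavy chain, Slc3a1, was at 25.1, 20.3 and 21.9 CPM in HFCF livers and 78.4, 39.8 and 50.5 CPM in chow livers. These groups did not overlap, yet the spread of the chow livers was wide and the change did not pass (-1.33 ± 0.58, edgeR adjusted p = 0.146). It passed without both libraries that stood apart (-1.31, edgeR adjusted p = 0.0381) and did not without HFCF replicate 3 alone (edgeR adjusted p = 0.226). Slc3a1 shares exon bases with Prepl on the opposite strand, which had a value of -0.61 ± 0.22 (edgeR adjusted p = 0.0728).

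Slc1a4 encodes ASCT1, a sodium-dependent exchanger of alanine, serine, cysteine and threonine. It was at 6.59, 7.77 and 4 CPM in HFCF livers and 1.67, 2.42 and 1.8 CPM in chow livers at 3 months. Every HFCF library was above every chow library, again with HFCF replicate 3 the lowest of its group. The log2 fold change was 1.65 ± 0.30 (edgeR adjusted p = 0.00276). At 1 month Slc1a4 was at 1.84, 1.34 and 0.887 CPM in HFCF livers and 1.82, 0.939 and 1.35 CPM in chow livers, with overlapping groups (0.01 ± 0.36). The related glutamine carrier Slc1a5 (ASCT2) had log2 fold changes of -0.39 ± 0.35 at 3 months and -1.02 ± 0.37 at 1 month, neither past the threshold. Of the glutamate carriers, Slc1a2 had a value of -0.27 ± 0.15 at 3 months and Slc1a3 (GLAST) -0.06 ± 0.57. Slc1a2 was at 265, 204 and 283 CPM in HFCF livers, all under the 305, 318 and 288 CPM of chow livers.

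**Figure D3:**
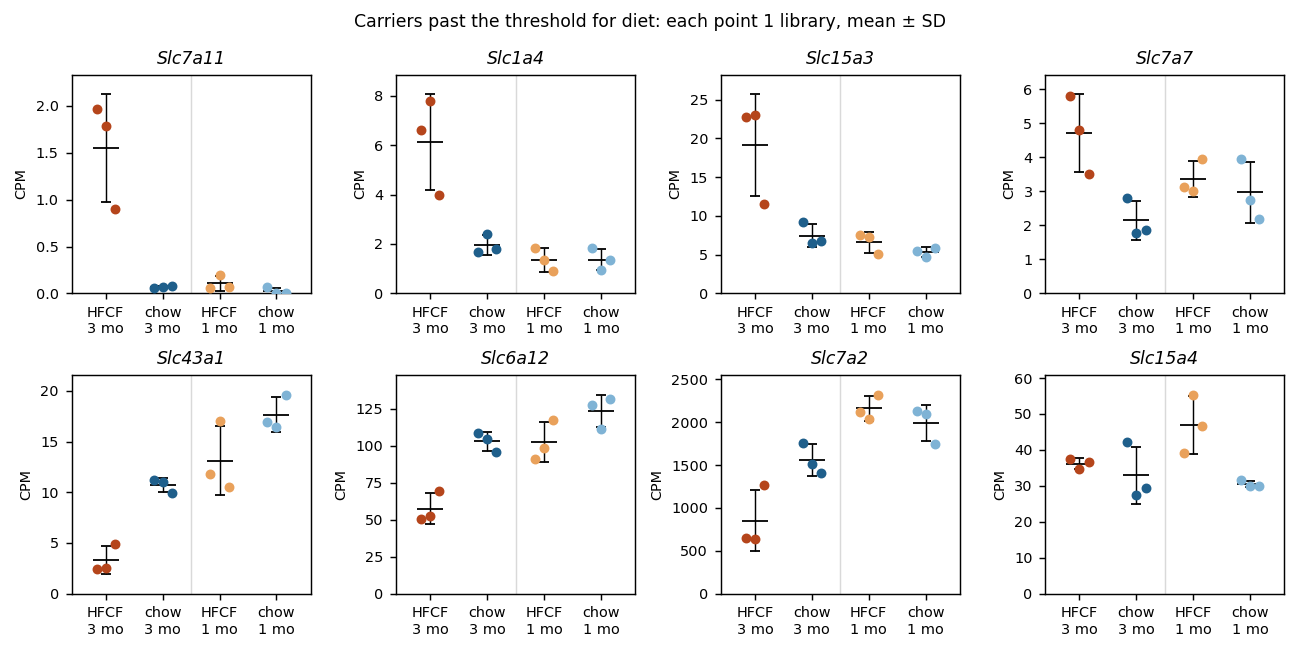
TMM-scaled CPM of the 8 carriers called between HFCF and chow at 3 months or at 1 month; each point is 1 library, with the group mean and SD (n = 3). Slc7a11, Slc1a4, Slc15a3 and Slc7a7 are higher and Slc43a1, Slc6a12 and Slc7a2 lower in the 3-month HFCF livers, and Slc15a4 is higher at 1 month.

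Promoter letters of the called light chains and Slc1a4 are shown because the 8-letter core TGATGNAA of the amino acid response element, searched on both strands, occurs in these windows. Sequences are RefSeq promoter windows (GRCm38.p6, 250 bases before to 50 after a start), cut to the stretch around the matches and written 5′ to 3′ on the gene's strand. Capitals mark the core or its reverse complement. Asns, asparagine synthetase, is a textbook ATF4 target and is shown beside them.
Slc7a11, chr3:50443633-50443698, minus strand: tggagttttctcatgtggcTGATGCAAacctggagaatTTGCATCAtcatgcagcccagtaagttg
Slc1a4, chr11:20332710-20332753, minus strand: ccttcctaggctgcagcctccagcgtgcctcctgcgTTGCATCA
Slc7a7, chr14:54417938-54418109, minus strand: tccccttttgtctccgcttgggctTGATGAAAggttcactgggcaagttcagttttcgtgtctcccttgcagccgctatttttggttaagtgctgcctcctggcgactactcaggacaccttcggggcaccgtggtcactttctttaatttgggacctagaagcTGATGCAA
Asns, chr6:7693210-7693269, minus strand: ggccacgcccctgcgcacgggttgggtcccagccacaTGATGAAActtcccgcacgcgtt
Slc7a11 held 2 copies facing each other, between bases -85 and -20 from its start. The Slc7a7 stretch belongs to 1 of 5 RefSeq starts of that gene and lies upstream of the gene model in the deposited table. Of 41 carrier symbols 31 had a RefSeq window, giving 49 windows, and the core was found in 5 of these (10.2%), in Slc7a11, Slc1a4, Slc7a7 and Slc15a5. Overlapping Slc7a7 windows held the same copy, which was counted once for each window. Over all 32851 windows the share was 3.97%. Slc15a5 did not pass at 3 months (0.24 ± 0.24). For Slc15a3, also called higher at 3 months, no match was found. Of 29 ATF4 response genes outside these families with a RefSeq window, 12 held the core. At 3 months Atf3, Chac1, Nupr1 and Vldlr of these were called higher, and Asns and Iars lower. Aars, Fgf21, Gars, Tars, Trib3 and Yars were not called. The antioxidant response element core TGACNNNGC was in 9 of the 49 windows (18.4%), against 12.4% of all windows, in Slc36a1, Slc38a2, Slc43a1, Slc6a13, Slc6a9, Slc7a1 and Slc7a6. The Slc7a6 match was likewise counted in overlapping windows. A match is a description of letters and not a binding site.

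Among the peptide and histidine carriers of endolysosomal membranes, Slc15a3 (PHT2) was at 22.8, 23 and 11.6 CPM in HFCF livers and 9.16, 6.47 and 6.75 CPM in chow livers at 3 months. The groups did not overlap, and HFCF replicate 3 was nearer to the chow livers than to the other HFCF livers. The log2 fold change was 1.36 ± 0.25 (edgeR adjusted p = 0.00309). Slc15a3 (chromosome 19, 10839727 to 10859362, plus strand) shares exon bases with Tmem132a on the opposite strand, which was also higher (1.43 ± 0.27, edgeR adjusted p = 0.00322). The sources used here do not give the strand that was counted, so reads of such overlaps are less certain.

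Slc15a4 (PHT1), which also supports signalling of endosomal receptors in immune cells, was at 39.2, 55.4 and 46.5 CPM in HFCF livers and 31.5, 30 and 30 CPM in chow livers at 1 month. The groups did not overlap, and the chow libraries lay close together while the HFCF libraries spread. Its log2 fold change of 0.62 ± 0.15 (edgeR adjusted p = 0.0499) made it the 1 carrier of 40 called at 1 month, a share of 2.5% against 2.04% of all genes. The call was lost in 14 of 16 alternatives, among them the omission of each of the 6 libraries at 1 month. At 3 months it was at 37.4, 34.6 and 36.5 CPM in HFCF livers and 42.1, 27.3 and 29.5 CPM in chow livers, which overlapped (0.13 ± 0.15). Slc15a4 shares exon bases with Gm43474 on the opposite strand. Slc15a2 (PepT2) ranged from 0.276 to 11.3 CPM, with overlapping groups at 1 month and HFCF livers under chow livers at 3 months (-1.46 ± 1.05), and Slc15a1 (PepT1, the intestinal peptide carrier) was too low to test.

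The cationic amino acid carrier Slc7a2, which supplies arginine and ornithine to hepatocytes, was at 651, 636 and 1265 CPM in HFCF livers and 1759, 1517 and 1403 CPM in chow livers at 3 months. HFCF replicates 1 and 2 were far under the chow livers, and replicate 3 was closer to them without overlap. The log2 fold change was -0.87 ± 0.23 (edgeR adjusted p = 0.0168). It was -1.28 without HFCF replicate 3 (edgeR adjusted p = 0.000102). The call was lost when only the groups compared were fitted (edgeR adjusted p = 0.0512) and without chow 3-month replicate 1, HFCF 3-month replicate 1 or HFCF 3-month replicate 2 (edgeR adjusted p = 0.0841 without the last). In bulk liver fewer cells of a type and less RNA per cell cannot be told apart, which bears on Slc7a2 and on the other carriers of hepatocytes. At 1 month Slc7a2 was at 2123, 2037 and 2320 CPM in HFCF livers and 2127, 2092 and 1751 CPM in chow livers, which overlapped (0.12 ± 0.22). Slc7a2 (chromosome 8, 40862396 to 40922308, plus strand) shares exon bases with Gm26584 on the opposite strand.

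Slc7a1 (CAT1), the cationic carrier of most other cells, was far lower, at 2.34, 2.14 and 1.1 CPM in HFCF livers and 1.46, 0.785 and 0.675 CPM in chow livers at 3 months. HFCF replicate 3 was within the chow range. Its log2 fold change was 0.92 ± 0.35 (edgeR adjusted p = 0.0808), and 1.16 without that library (edgeR adjusted p = 0.02). At 1 month the value was -0.74 ± 0.38. Slc7a4, a relative of the cationic carriers, had 0.28 ± 0.38 and Slc7a15 -0.01 ± 0.54 at 3 months.

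Slc43a1 encodes LAT3, a facilitator of branched-chain and other large neutral amino acids. It was at 2.48, 2.53 and 4.9 CPM in HFCF livers and 11.3, 11 and 9.89 CPM in chow livers at 3 months. All HFCF libraries were far under all chow libraries, with replicate 3 the highest of the HFCF livers. The log2 fold change was -1.74 ± 0.24 (edgeR adjusted p = 0.000839), and the call held in each of the alternatives run for it. At 1 month it was at 11.8, 17 and 10.5 CPM in HFCF livers and 17, 16.4 and 19.6 CPM in chow livers, with overlapping groups (-0.43 ± 0.22, edgeR adjusted p = 0.352). The gene lies on chromosome 2 (84838850 to 84863594, plus strand). Its relatives Slc43a2 (LAT4, 0.25 ± 0.16) and Slc43a3 (-0.10 ± 0.08) did not pass at 3 months, and Slc43a3 had the smallest spread within groups of all tested carriers, at 0.07 on the log2 scale. Without HFCF replicate 3 Slc43a2 passed (0.43, edgeR adjusted p = 0.0181).

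Of the osmolyte and neurotransmitter family Slc6a, the betaine carrier Slc6a12 was at 50.2, 52.4 and 69.5 CPM in HFCF livers and 108, 104 and 95.7 CPM in chow livers at 3 months. No HFCF library reached the chow range, and replicate 3 came nearest to it. The log2 fold change was -0.84 ± 0.13 (edgeR adjusted p = 0.00124), and the call held in each of the alternatives run for it. At 1 month its value was -0.27 ± 0.13 (edgeR adjusted p = 0.315). Slc6a13, also on chromosome 6, did not pass at 3 months, at 160, 173 and 132 CPM in HFCF livers and 118, 143 and 145 CPM in chow livers (0.20 ± 0.12). The taurine carrier Slc6a6 (0.04 ± 0.11), the creatine carrier Slc6a8 (0.44 ± 0.33), the glycine carrier Slc6a9 (0.81 ± 0.37) and the serotonin carrier Slc6a4 (0.00 ± 0.44) did not pass either. Without HFCF replicate 3 Slc6a8 passed (0.76, edgeR adjusted p = 0.0158). Slc6a9 was at 23.1, 21.9 and 18.6 CPM in HFCF livers, all above the 11.3, 12.4 and 12.9 CPM of chow livers. Slc6a9 shares exon bases with B4galt2 (1.22 ± 0.41, edgeR adjusted p = 0.0537), Gm17114 (0.99 ± 0.44) and Ccdc24 on the opposite strand, so its reads are less certain.

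None of the 9 tested rows of the Slc38a family passed at 3 months. The most abundant carrier, Slc38a4, was at 1093, 1146 and 1539 CPM in HFCF livers and 1846, 1588 and 1672 CPM in chow livers, without overlap (-0.43 ± 0.15, edgeR adjusted p = 0.057). It passed under the Wald test of DESeq2 (adjusted p = 0.00874), under limma-voom (adjusted p = 0.0436) and without HFCF replicate 3 (edgeR, -0.61, adjusted p = 0.00605). Slc38a3 was at 704, 712 and 999 CPM in HFCF livers and 1033, 1054 and 914 CPM in chow livers, where HFCF replicate 3 fell inside the chow range (-0.31 ± 0.15, edgeR adjusted p = 0.17). Without that library Slc38a3 passed (-0.50, edgeR adjusted p = 0.0174). Slc38a2 was at 116, 90.5 and 104 CPM in HFCF livers, all under the 139, 151 and 133 CPM of chow livers (-0.45 ± 0.19, edgeR adjusted p = 0.121). Slc38a10, whose function is little known, was at 118, 124 and 102 CPM in HFCF livers and 104, 104 and 119 CPM in chow livers (0.07 ± 0.10).

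Less abundant Slc38a rows had values on both sides of 0 and did not pass. The system A carrier Slc38a1 had a log2 fold change of 0.82 ± 0.33, and passed without HFCF replicate 3 (1.08, edgeR adjusted p = 0.0154). The lysosomal glutamine carrier Slc38a7 had 0.40 ± 0.15 and Slc38a6 0.24 ± 0.16 at 3 months. Slc38a9 is listed under 2 identifiers. ENSMUSG00000047789 was at 8.42, 7.25 and 8.07 CPM in HFCF livers and 10.3, 9.48 and 10.1 CPM in chow livers (-0.33 ± 0.16). ENSMUSG00000069056 was lower, at 1.03, 0.873 and 0.69 CPM in HFCF livers and 1.29, 1.44 and 1.12 CPM in chow livers (-0.55 ± 0.28). Both rows had HFCF livers under chow livers at 3 months, but the second overlaps exons that GENCODE M21 gives to Slc38a9 and its reads are uncertain. Slc38a11 was too low to test, with 14, 6 and 5 counts in HFCF livers and 1, 2 and 0 counts in chow livers at 3 months, a ratio of summed counts of 6.69 (95% exact interval 2.04 to 34.6, counting error only). The proton-coupled carriers Slc36a1 (0.12 ± 0.18) and Slc36a4 (0.19 ± 0.11) did not pass.

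**Figure D4:**
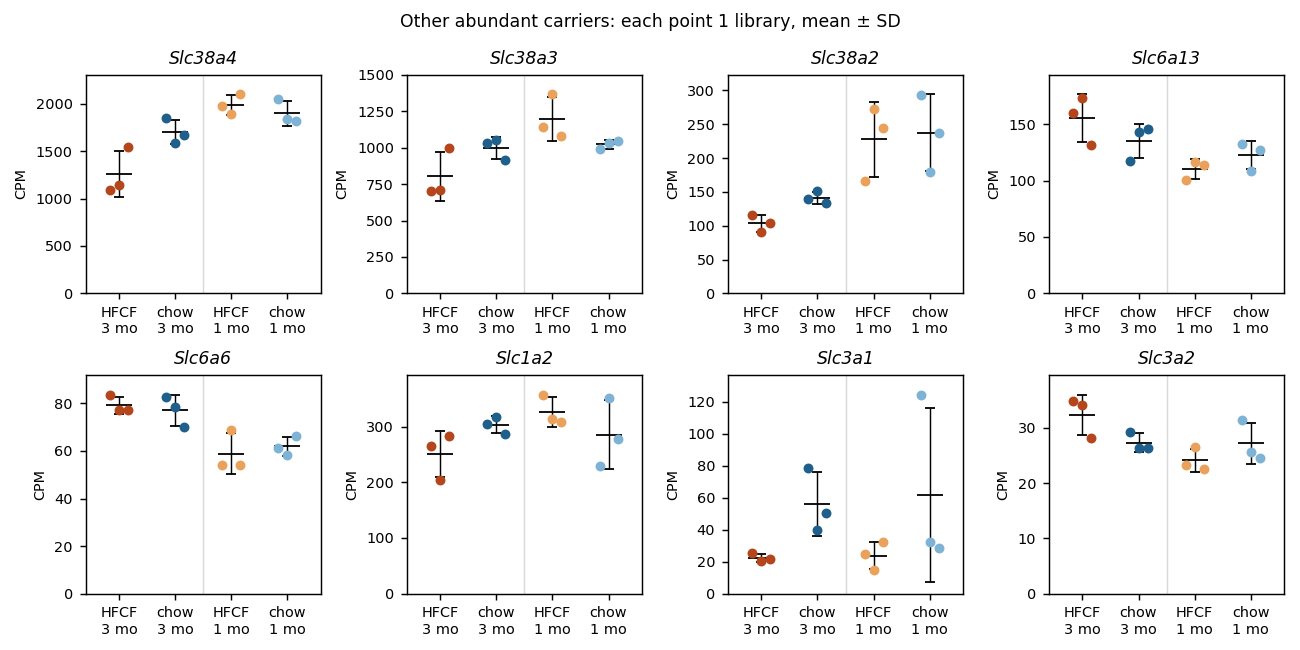
TMM-scaled CPM of 8 further carriers, each point 1 library with the group mean and SD (n = 3). Slc38a4, Slc38a2, Slc1a2 and Slc3a1 have every 3-month HFCF library under every 3-month chow library without passing the threshold, and Slc3a1 varies widely among chow livers.

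Apart from Slc15a4, the carriers at 1 month had log2 fold changes between -1.43 and 1.98, and 34 of these 39 lay within 0.5 of 0. An unadjusted p under 0.05 was found for 5 of the 40, against 16.3% of all genes. Slc7a6 was at 0.224, 0.334 and 0.341 CPM in HFCF livers and 0.942, 0.587 and 0.921 CPM in chow livers at 1 month (-1.43 ± 0.53, edgeR adjusted p = 0.198). Slc7a1 was at 0.671, 0.668 and 1.02 CPM in HFCF livers and 1.57, 1.23 and 1.13 CPM in chow livers, and Slc1a5 at 1.4, 0.801 and 2.12 CPM in HFCF livers and 3.58, 2.17 and 3.05 CPM in chow livers. For all 3 the HFCF livers lay under the chow livers at 1 month, while at 3 months the fitted values of Slc7a6 and Slc7a1 were above 0. Slc38a3 was at 1144, 1366 and 1079 CPM in HFCF livers, above the 990.2, 1034 and 1049 CPM of chow livers (0.22 ± 0.15, edgeR adjusted p = 0.509).

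Libraries of HFCF and chow did not overlap for 17 of the 40 tested carriers at 3 months, 7 above and 10 below, against 36.8% of all genes (19.3% above and 17.5% below). At 1 month 4 lay above and 4 below, against 10.1% and 10.5% of all genes. At 1 month Slc15a4, Slc38a3, Slc7a4 and Slc38a9 under ENSMUSG00000069056 lay above and Slc1a5, Slc43a3, Slc7a1 and Slc7a6 below. No carrier was separated in the same direction at both months.

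The diet effect at 3 months minus that at 1 month was tested directly, and 0 of 40 carriers passed, against 0.0407% of all genes. At an unadjusted p under 0.05 there were 13 carriers, against 15.6% of all genes. The difference was 2.67 ± 0.71 for Slc7a6 (edgeR adjusted p = 0.123) and 2.50 ± 2.09 for Slc7a11 (edgeR adjusted p = 0.616). Leaving out both libraries that stood apart gave 0.79 for Slc7a11 (edgeR adjusted p = 0.848). Its 1-month side rests on 5 counts in HFCF livers and 1 count in chow livers. Both values of Slc7a11 therefore depend on the prior count and cannot tell whether its diet effect differed between the months. Slc43a1 had a difference of -1.31 ± 0.32 (edgeR adjusted p = 0.112), which was the 1 carrier past the threshold under the Wald test of DESeq2 (adjusted p = 0.0139). Limma-voom gave 0. Without HFCF 3-month replicate 3, 9 carriers passed, as 878 of all genes did, while leaving out any other single library gave 0 carriers. Among the 9 were Slc7a6 (3.01, edgeR adjusted p = 0.0104), Slc15a3 (1.30, edgeR adjusted p = 0.013), Slc43a1 (-1.67, edgeR adjusted p = 0.00463) and Slc7a2 (-1.40, edgeR adjusted p = 0.00356). Without both libraries that stood apart, 6 passed, as 635 of all genes did.

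Between the months on HFCF 14 of 40 carriers passed, 8 higher and 6 lower at 3 months, or 35% against 16.2% of all genes. Higher were Slc7a11 (3.81 ± 0.54), Slc1a4 (2.16 ± 0.32), Slc7a6 (1.80 ± 0.51), Slc15a3 (1.54 ± 0.25), Slc7a1 (1.27 ± 0.36), Slc6a13 (0.49 ± 0.12), Slc6a6 (0.43 ± 0.11) and Slc3a2 (0.43 ± 0.12). Lower were Slc43a1 (-2.03 ± 0.24), Slc7a2 (-1.34 ± 0.23), Slc38a2 (-1.14 ± 0.19), Slc6a12 (-0.83 ± 0.13), Slc38a4 (-0.66 ± 0.15) and Slc38a3 (-0.57 ± 0.15). In chow livers Slc43a1 was also lower at 3 months, without overlap of the libraries (-0.72 ± 0.22, edgeR adjusted p = 0.431). Slc38a2 was at 116, 90.5 and 104 CPM in HFCF livers at 3 months and 166, 272 and 244 CPM in HFCF livers at 1 month, with no overlap. In chow livers it was at 139, 151 and 133 CPM at 3 months and 294, 180 and 238 CPM at 1 month, also apart (-0.75, edgeR adjusted p = 0.342). Slc6a6 rose to 83.3, 77.1 and 77.1 CPM in HFCF livers at 3 months, against 53.9, 68.9 and 54 CPM at 1 month. In chow livers Slc6a6 was at 82.8, 78.6 and 70.1 CPM at 3 months and 61.2, 58.4 and 66.4 CPM at 1 month (0.32 ± 0.11, edgeR adjusted p = 0.486), again apart. Of the 14 carriers 7 kept their call in all alternatives: Slc7a11, Slc1a4, Slc15a3, Slc38a2, Slc6a12, Slc43a1 and Slc7a2. The count was 7 without HFCF 3-month replicate 1 or replicate 2, as 898 and 732 of all genes passed, against 2385 with every library. It was 18 without HFCF 3-month replicate 3 and 20 without both libraries that stood apart, as 3562 and 3808 of all genes passed. It was 9 when only the groups compared were fitted, as 1298 of all genes passed.

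Between the months on chow 0 of 40 carriers passed, against 0.00679% of all genes. At an unadjusted p under 0.05 there were 3, against 8.08% of all genes. The Wald test of DESeq2 called 1, Slc38a2, and limma-voom 0. Chow and HFCF changes with time were compared only through the difference of the diet effects, which is the same contrast.

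Other genes of amino acid handling were taken as lists. Of 33 tested ATF4 response genes outside these families, 6 rose and 3 fell at 3 months, 27.3% against 19% of all genes, with a median log2 fold change of 0.12. Higher were Nupr1 (2.48 ± 0.50), Vldlr (2.14 ± 0.48), Chac1 (a glutathione-degrading enzyme, 1.64 ± 0.44), Psat1 (serine synthesis, 2.04 ± 0.59), Mthfd2 (1.71 ± 0.52) and Atf3 (2.91 ± 0.81). Lower were Cth (cysteine synthesis, -1.83 ± 0.38), Iars (-0.38) and Asns (-3.07 ± 0.80). Asns, whose promoter is shown above with 1 copy of the core, was at 1.08, 2.23 and 0.483 CPM in HFCF livers and 8.73, 13.1 and 12.3 CPM in chow livers, so that it was on the other side from Slc7a11 and Slc1a4. At 1 month 1 of the 33 passed, or 3.03% against 2.04% of all genes, namely Tars (-0.84, edgeR adjusted p = 0.00597).

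Enzymes of glutamine, glutamate and the urea cycle gave 3 higher and 7 lower of 17 at 3 months, 58.8% against 19% of all genes. Asl was at 229, 254.5 and 460.2 CPM in HFCF livers and 1835, 2011 and 1884 CPM in chow livers (-2.60 ± 0.27, edgeR adjusted p = 0.000199). Arg1 (-1.51 ± 0.25), Ass1 (-1.50 ± 0.28), Got1 (-2.58 ± 0.41), Gls2 (-1.19 ± 0.28), Gpt (-0.63) and Gpt2 (-0.62) were also lower. The higher ones included Gclc, the catalytic subunit of glutamate-cysteine ligase in glutathione synthesis (1.09 ± 0.15), and Glul, glutamine synthetase (0.68 ± 0.18). At 1 month 1 passed, or 5.88% against 2.04% of all genes, namely Gfpt1 (-0.75, edgeR adjusted p = 0.00744).

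Amino acid carriers outside the rule gave 0 higher and 7 lower of 13 at 3 months, 53.8% against 19% of all genes, with a median log2 fold change of -0.39 against -0.004. They were Slc25a22 (a glutamate carrier, -1.41 ± 0.26), Slc25a29 (-0.99), Slc25a15 (the ornithine carrier, -0.98), Slc16a10 (the aromatic amino acid carrier TAT1, -0.97 ± 0.20), Slc25a12 (-0.69), Slc25a44 (-0.59) and Sfxn1 (-0.39). Sfxn1 was the 1 called at 1 month (-0.41, edgeR adjusted p = 0.0331), or 7.69% of the 13 against 2.04% of all genes. Of 25 lysosomal sensing and mTORC1 genes 4 passed at 3 months, all higher, or 16% against 19% of all genes. They were Rragd (1.76 ± 0.33), Fnip2 (0.84 ± 0.19), Fnip1 (0.49 ± 0.14) and Rragc (0.28). At 1 month Fnip2 (1.06 ± 0.20) and Fnip1 (0.72 ± 0.14) were called higher, 8% of the list against 2.04% of all genes.

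Markers of some other cell types were also higher at 3 months. Over all 14725 genes tested 1697 were called higher and 1105 lower, or 19%. Of 15 tested macrophage and recruited myeloid markers 13 were higher and 0 lower at 3 months, or 86.7%. HFCF replicate 3 had both the lowest myeloid sum of its group and the lowest Slc7a11, Slc1a4, Slc15a3 and Slc7a7. Stellate and fibroblast markers summed to 1090, 1310 and 693 CPM in HFCF livers and 691, 514 and 565 CPM in chow livers at 3 months. Of 12 tested 5 were called higher and 1 lower. Cholangiocyte markers, whose list shares Spp1 with the myeloid list, summed to 218, 224 and 61.6 CPM in HFCF livers and 44.8, 31.9 and 36.4 CPM in chow livers. Of 5 tested 1 was called higher, the shared Spp1 (2.35 ± 0.43), or 20% against 19% of all genes. Epcam, Krt7 and Krt19 had values above 0 and did not pass, and Sox9 had -0.66 ± 0.33. Of the neutrophil markers 3 were tested and 3 were called higher. HFCF replicate 3 was lowest of its group in the stellate, cholangiocyte and neutrophil sums. Of 10 sinusoidal endothelial markers 0 passed at 3 months. Of 8 resident Kupffer markers 1 was higher and 1 lower, and of 5 tested markers of T, NK and B cells 1 was higher. Hepatocyte markers, of which 5 of 12 were lower and 0 higher at 3 months, summed to 92500, 88100 and 114000 CPM in HFCF livers, so that replicate 3 was highest there, as it was for Slc43a1, Slc6a12 and Slc7a2. The part of these cell types in the changes was not tested.

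**Figure D5:**
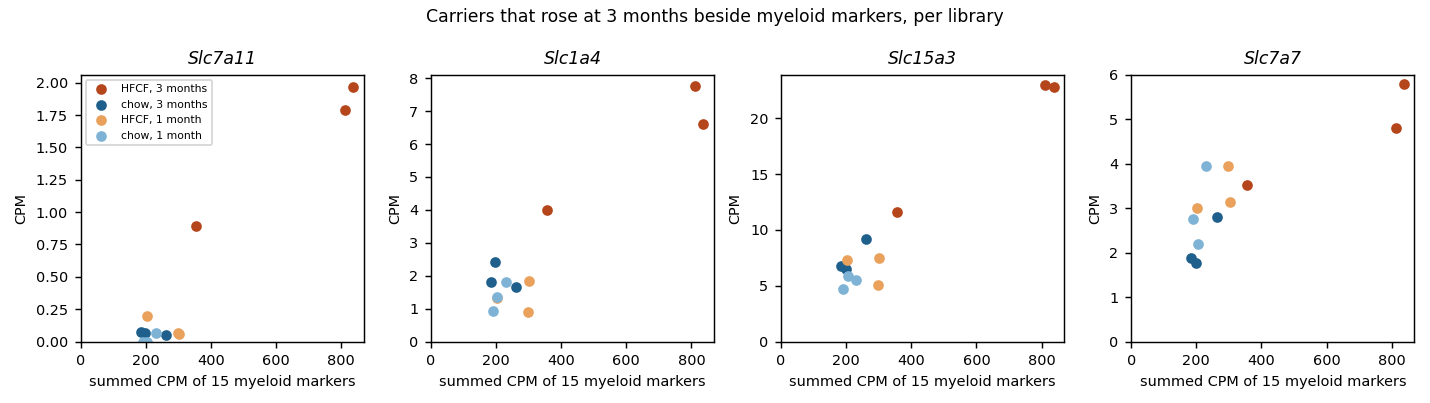
TMM-scaled CPM of the 4 carriers called higher at 3 months against the summed CPM of 15 macrophage and recruited myeloid markers, each point 1 library. HFCF 3-month replicate 3, at a sum of 355, lies between the other HFCF 3-month libraries (812 and 837) and the rest (185 to 302) in both measures, except for Slc7a7, where it falls within the range of the 1-month libraries.

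The authors' deposited table called 9 carriers at 3 months, 5 higher and 4 lower, and 19.3% of all 16035 genes. The 7 called here were among the 9, and the other pair in the authors' deposited table was Slc38a11, higher, and Slc38a4, lower. At 1 month the authors' deposited table called 1 carrier, Slc15a4, and 3.92% of all genes. Between the months on HFCF the authors' deposited table called the same 14 carriers and 17.2% of all genes, and between the months on chow 1 carrier and 0.387% of all genes.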

How the data were processed

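Livers were flash-frozen, total RNA was depleted of ribosomal RNA, and stranded libraries were made, per the labels' protocols. The authors deposited 1 table of raw counts per gene and FPKM values made from them, on mm10 per the submitters' processing notes. The sources used here name no aligner or counter and do not say which strand was counted. Its log2 ratios, deposited as the first-named over the second-named group per the file headers and their signs, were turned round, and the authors' adjusted p is a deposited score, -10 times its log10. The other deposited column gives the bases of each gene model. 1 emptied line was left out.

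Counts were fitted in R 4.3.3 with edgeR 4.0.16 (TMM factors 0.921 to 1.14, filterByExpr, which removed 1310 of 16035 genes, with a single quasi-likelihood model of all 12 libraries, robust estimation and 1 mean for each of 4 groups), with limma 3.58.1 and DESeq2 1.42.0 as alternatives. The common biological coefficient of variation was 0.153. Standard errors were taken as the log2 fold change over the square root of F. The scripts were tested on simulated data. The members and lists were chosen with earlier results of these data known. Genes were named by rule: each member is accounted for, with libraries shown for those called, for the 10 most abundant in chow, and for members whose libraries were apart at both months. Libraries are also shown for some other members, chosen after their values were seen. From the other lists the 6 with the smallest p at 3 months, and those called at 1 month, are named, with the remaining called genes added where they were few. 1 gene that the rule names is not reported here. Replicates are separate samples per the series text. Pairs of replicates differed by more than sampling noise, at 13 to 65.4 chi-square units per gene. Positions come from the table, overlaps from GENCODE M21, in which the rule finds 66 protein-coding symbols, 41 of them listed; the others were not analysed here. Figures were drawn in Python 3.11.15 with pandas 2.3.3 and matplotlib 3.10.9.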

Additional observations from a re-analysis of the deposited data

How the results depend on the processing

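For the carriers called between HFCF and chow at 3 months (7), all other scalings, filters and tests gave 6 to 10. Leaving out 1 library gave 5 to 14, and leaving out both libraries that stood apart gave 16. The single call at 1 month was lost, giving 0, under total library size, limma-voom, a filter at a mean of 1 CPM, no filter at all, the replicate block, robust estimation off, only the groups compared, both libraries left out, and any 1 library left out (0 to 0). For the difference of the diet effects (0) the Wald test of DESeq2 gave 1, leaving out both libraries 6, and leaving out 1 library 0 to 9. For time on HFCF (14) only the groups compared gave 9 and leaving out 1 library 7 to 18; for time on chow (0) the Wald test of DESeq2 gave 1 and leaving out 1 library 0 to 0. The cause was not tested. Replicate numbers did not pair the libraries, since correlations between same-numbered libraries of different groups ran from -0.173 to 0.19 over 18 pairs; the replicate block gave 7 carriers at 3 months, 0 at 1 month, 14 for time on HFCF and 0 for the others. No single carrier that was called reversed its direction; 51 gene values lost and 55 gained a call over the alternatives, and 3253 kept their side of the threshold.

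Under total library size the median of all genes moved to 0.127 at 3 months and 0.22 for time on HFCF; 2516 of 3090 genes called at 3 months were then higher, against 1697 of 2802 under TMM, and the carriers gave 5 higher and 3 lower. Over all genes, the Wald test of DESeq2 called 641 genes at 1 month, 367 for the difference and 69 for time on chow, against 301, 6 and 1. Fitting only the groups compared called 147 at 1 month and 1298 for time on HFCF. Total library size called 3907 for time on HFCF, against 2385. The replicate block called 48 for the difference. With both libraries left out 149 genes passed at 1 month, 3910 at 3 months, 635 for the difference and 3808 for time on HFCF. Single omissions gave 65 to 289 at 1 month, 1255 to 3631 at 3 months and 732 to 3562 for time on HFCF. At the depth of these libraries Slc7a11 in chow rests on 1 count or fewer per library, Slc15a1 and Slc38a11 could not be tested, and intervals cover counting error only.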

Other observations

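The spread among livers of 1 group differed widely between carriers. The median SD within groups on the log2 scale was 0.32 for the 40 tested carriers, against 0.20 for all 14725 genes tested. Slc15a2, a peptide carrier, had the widest spread at 1.76 and was at 11.3, 0.334 and 8.8 CPM in HFCF livers and 1.88, 10.7 and 9.7 CPM in chow livers at 1 month. Slc3a1 reached 124 CPM in chow 1-month replicate 1, the library that stood apart in its group, against 32.6 and 28.3 CPM in replicates 2 and 3. Prepl, which shares exon bases with Slc3a1 on the opposite strand, was at 56.1 CPM in that library, against 30.7 and 28.9 CPM. The intestinal peptide carrier Slc15a1 gave 13 counts in the same library and at most 2 counts in any other.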
